A study of Mus musculus with 2 samples.

Results

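The genes described here are 9 genes of the melanocyte, the pigment cell of skin: the transcription factors Mitf and Sox10, the receptors Kit and Mc1r, the pigment enzymes Tyr, Tyrp1 and Dct, and the melanosome proteins Pmel and Mlana. A peak was counted as theirs if it overlapped one of these genes, or lay within 50 kb of one as its nearest protein-coding gene. By this rule 34 of the 84591 nuclear peaks of the deposited table belonged to 8 of the 9 genes, and 0 peaks belonged to Tyr. The genes were chosen as a check of another lineage, since the cells were sorted as basal keratinocytes.

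ATAC-seq, which reads accessible DNA through the insertions of a transposase, was performed on 50000 sorted basal cells of mouse skin epidermis per library. The gate took cells with high α6 integrin, without CD34 and Lrig1, and with the fluorescent reporters of K14 lineage tracing (YFP, GFP and RFP), in both groups. The control library is labelled WT and the other library basal lineage ablation. There was 1 library of each, and neither the age of the mice nor the means of ablation is given in the sources used here. K14 (keratin 14) is made by basal keratinocytes and not by melanocytes. Reads in nuclear peaks numbered 17056996 in control and 12463908 in ablation, and mitochondrial DNA took a further 7.31% and 31.2% of the reads in peaks. With 1 library per group nothing was tested between conditions, and the 95% intervals given cover counting error only. In a bulk library, fewer open cells and less opening per cell cannot be told apart.

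Melanocytes arise from the neural crest and reach skin as melanoblasts, whose survival depends on the receptor tyrosine kinase KIT. SOX10 activates Mitf, and MITF in turn binds the M-box, an extended E-box, in the promoters of pigment enzyme genes. MC1R, the melanocortin receptor, raises cAMP and through it Mitf. TYR, the rate-limiting enzyme of melanin synthesis, works with TYRP1 and DCT in the melanosome, whose fibrils are built from PMEL. In hairy mouse skin most melanocytes sit in hair follicles, outside the interfollicular basal layer that the gate aims at.

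The promoters of the pigment genes are shown because the M-box lies in them and the table says which of them carry a peak. RefSeq windows of GRCm38.p6 (250 bases before to 50 after a start) were given for 6 of the 9 genes, in 9 windows. The 250 bases upstream of the start are printed on the gene's strand, or 30 bases around the motif for Tyrp1, with the M-box letters TCATGTG, on either strand, in capitals.

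Dct (chr14:118052247-118052496, minus strand): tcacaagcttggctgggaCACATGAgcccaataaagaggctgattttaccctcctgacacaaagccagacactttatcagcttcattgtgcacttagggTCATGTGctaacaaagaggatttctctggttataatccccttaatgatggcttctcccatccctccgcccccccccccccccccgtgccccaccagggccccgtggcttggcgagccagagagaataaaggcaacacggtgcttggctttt

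Mc1r (chr8:123406832-123407081, plus strand): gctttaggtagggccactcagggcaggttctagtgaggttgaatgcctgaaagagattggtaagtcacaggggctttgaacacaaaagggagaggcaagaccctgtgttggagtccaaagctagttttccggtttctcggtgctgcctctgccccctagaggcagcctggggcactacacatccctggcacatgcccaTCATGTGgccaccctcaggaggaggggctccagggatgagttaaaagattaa

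Tyr (chr7:87493513-87493762, minus strand): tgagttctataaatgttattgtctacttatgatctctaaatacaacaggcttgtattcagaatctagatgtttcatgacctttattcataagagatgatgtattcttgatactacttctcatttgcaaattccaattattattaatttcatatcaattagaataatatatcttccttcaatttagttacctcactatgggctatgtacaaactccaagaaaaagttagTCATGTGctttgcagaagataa

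Tyrp1 (chr4:80834155-80834184, plus strand): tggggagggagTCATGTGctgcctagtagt

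The letters TCATGTG, which contain the shorter E-box CATGTG, were found on either strand in the windows of Dct, Mc1r, Tyr and Tyrp1, and in 3.77% of all 32851 promoter windows of that length. Their first base lay 22 bases upstream of the start that defines the window in Tyr, 47 in Tyrp1 and 52 in Mc1r. The RefSeq span of Tyrp1 begins before its window start (80834123 against 80834213), so its match at 80834166 lies within that span. In Dct a match lay 151 bases upstream on the gene's strand and another 232 bases upstream on the opposite strand. The matches of Dct and Mc1r lay inside peaks, and those of Tyr and Tyrp1 did not. The letters ACAAAG, part of the site that SOX factors bind, were in the windows of Dct and Tyrp1 and in 18.7% of all windows. The AP-1 letters TGANTCA and the E-box CACGTG were in 0 of the 9 windows, against 7.81% and 7.15% of all windows. Such matches describe the letters and do not show binding.

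Mitf has 3 RefSeq starts in this table, and its melanocyte isoform is known to start from the most downstream promoter of the gene. That window holds TGACGTCA, the letters of a cAMP response element, 153 bases upstream of the start, as do 1.79% of all windows. This motif was added after the sequence had been read. It is in capitals below.

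Mitf, the third start (chr6:97991533-97991782, plus strand): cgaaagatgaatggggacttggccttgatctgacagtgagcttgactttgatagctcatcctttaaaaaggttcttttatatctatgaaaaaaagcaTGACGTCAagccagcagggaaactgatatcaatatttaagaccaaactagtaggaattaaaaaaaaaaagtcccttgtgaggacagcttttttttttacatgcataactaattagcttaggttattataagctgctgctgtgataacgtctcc

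Open chromatin at the 9 genes was concentrated in Mitf and in 2 peaks of Pmel that overlap neighbouring genes. The lineage-restricted promoters of Mitf, Tyr and Tyrp1 lay outside all peaks, whereas the promoters of Dct and Mc1r had a peak over them. Of the 6 genes with a promoter window, Mitf (first start), Kit, Mc1r and Dct had a peak over it, 4 of 6, where 60.7% of 17492 protein-coding genes did. Gene-end peaks, those no more than 1 kb from a gene's start or end, were found at 6 of the 9 genes and at 62.6% of all protein-coding genes. To compare peaks of unequal length, signal was expressed per kb of peak and ranked among all nuclear peaks. The 34 peaks had a median rank at the 34.8th percentile, and 9 of them lay above the 50th. Their median length was 428 bp, against 551 bp for all nuclear peaks.

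**Figure D1:**
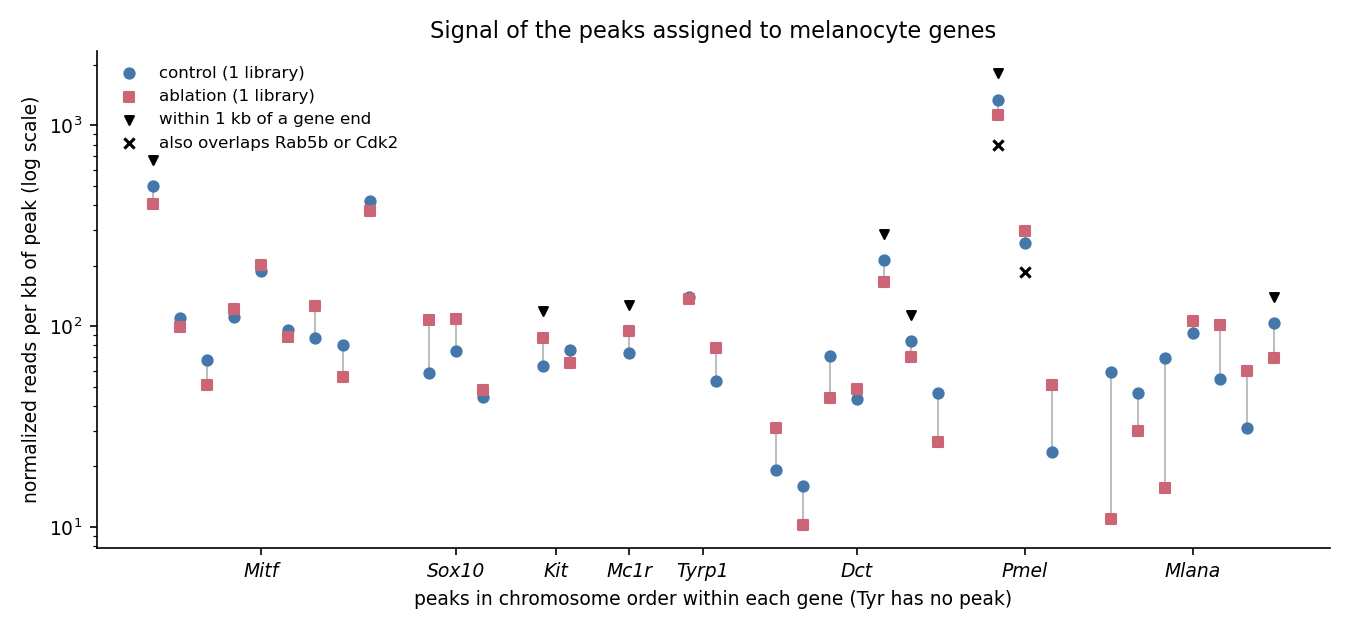
Signal of each of the 34 peaks in normalized reads per kb of peak (log axis), in the control library (circles) and the ablation library (squares), by gene and in chromosome order. Triangles mark peaks within 1 kb of a gene end and crosses the 2 Pmel peaks that also overlap Rab5b or Cdk2; the first of these is the highest point, at 1340 and 1120.

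Mitf, the master regulator of the melanocyte lineage, spans chr6:97807002-98021360 and held 9 peaks, all within the gene. The strongest covered its first start (chr6:97806596-97807556), with 479.2 normalized reads in the control library and 387.3 after ablation. That is 499 and 403 per kb, at the 93.1st percentile of all peaks. The ablation value was 0.808 of control (0.714 to 0.914), so the counting intervals do not reach equality.

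Another 6 peaks followed in the first part of the gene, between chr6:97826447 and 97856421, at 33.17 to 217.3 normalized reads in control against 30.84 to 195 in ablation. Among them the peak at chr6:97855599-97856421 had 71.27 normalized reads in control and 103.4 in ablation, a ratio of 1.45 (1.1 to 1.92), the highest in the gene. The lowest ratio in Mitf, 0.689 (0.342 to 1.33), belonged to a weak peak at chr6:97950267-97950512 with 28 and 15 reads. A strong internal peak at chr6:97952669-97953276 stood at 254 and 227.7 normalized reads, at the 90.8th percentile per kb.

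The second and the third start of Mitf had no peak over them. The nearest peak was 20.4 kb from the second start and 38.5 kb from the third, the start of the melanocyte isoform by its position. The gene was open at the upstream start, which serves isoforms made in many cell types, and no peak was listed at the promoter printed above. Summed over its 9 peaks Mitf had 1308 normalized reads in control and 1192 in ablation, a ratio of 0.911 (0.848 to 0.978). Its log2 ratio of -0.13 compares with a median of -0.07 over all genes.

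Sox10, which maintains neural crest identity and activates Mitf, spans chr15:79154913-79164490 and had 3 peaks. Within the gene was 1 weak peak (chr15:79162282-79162451), at 9.879 normalized reads in control against 18.14 in ablation, from 14 and 20 reads. The other two lay 12.2 and 28.3 kb outside it, both inside the long non-coding RNA gene Gm10863. The nearer, at chr15:79176713-79177448, had 55.04 and 79.82 normalized reads, a ratio of 1.45 (1.06 to 1.99). The farther, at chr15:79192805-79194006, had 52.93 and 58.05. Sox10 had 0 gene-end peaks. All 3 of its peaks had more signal in ablation. The ratio intervals of the peak within the gene (0.882 to 3.93) and of the farthest (0.773 to 1.55) include no difference. The farthest had a log2 ratio of -0.20 when libraries were divided by their totals over all peaks, mitochondrial peaks included. The sum was 1.32 times control (1.06 to 1.65), a log2 ratio of 0.40 that was 0.06 after that division.

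Kit, the receptor for stem cell factor, spans chr5:75574987-75656722 and had 2 peaks, both under the signal minimum of 13.96 normalized reads (the 10th percentile of the mean of both libraries) that was set for ratios. The peak over its start (chr5:75574879-75575024) had 9.174 normalized reads in control and 12.7 in ablation, from 13 and 14 reads. The peak inside the gene (chr5:75619672-75619811) had 10.59 and 9.07, from 15 and 10 reads. Their sum differed by less than counting error, with a ratio of 1.1 (0.611 to 1.97).

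Mc1r, a gene of 3.66 kb at chr8:123407082-123410744, had 1 peak, over its promoter (chr8:123406751-123407039). It had 21.17 normalized reads in control (14.3 to 30.2) and 27.21 in ablation (18.4 to 38.8), from 30 reads in each library. The ratio of 1.29 has an interval from 0.749 to 2.21, which includes no difference. Per kb this promoter peak ranked at the 39.2nd percentile of all peaks.

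Tyr, at chr7:87424771-87493512, had no peak, and none lay near it. The peaks on either side ended 2.64 Mb below the gene and began 604 kb above it, a stretch of 3.32 Mb with consecutive peak numbers at its edges. Only 14 of 84570 intervals between neighbouring peaks, this one included, were as long or longer, and the median interval was 7.25 kb. The stretch holds 35 protein-coding genes in full, of which 32 are olfactory or vomeronasal receptor genes by symbol. Its other genes include Tyr and the NADPH oxidase gene Nox4.

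Tyrp1, at chr4:80834123-80851736, had 2 peaks, both beyond its 3′ end, 12.7 and 22.7 kb from the gene. The nearer (chr4:80864477-80865085) had 85.39 normalized reads in control against 82.54 in ablation. The farther (chr4:80874483-80875356) had 46.58 and 68.03, a ratio of 1.46 (1.04 to 2.07). No peak lay within 30.3 kb of the start of Tyrp1. The sum of both peaks had a log2 ratio of 0.19, which was -0.15 with each library divided by its table total.

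Dct, dopachrome tautomerase, differed from the other pigment enzymes in having peaks at its start. It spans chr14:118012790-118052246 on the minus strand and had 7 peaks, 4 within the gene. The peak over the start and the printed promoter (chr14:118052140-118052502) had 30.34 normalized reads in control and 25.4 in ablation. A stronger peak just inside the gene (chr14:118050879-118051678) had 170.1 and 132.4, at the 71st percentile per kb, and a ratio of 0.779 (0.63 to 0.96). Farther into the gene, at chr14:118018413-118018871, there were 32.46 and 19.95 normalized reads, a ratio of 0.615 (0.352 to 1.04), the lowest of its tested peaks. The other 4 peaks were under the signal minimum, with 4 to 16 reads in control and 2 to 15 in ablation.

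All 3 tested peaks of Dct were lower in ablation. Their sum was 232.9 normalized reads in control and 177.8 in ablation, a ratio of 0.763 (0.636 to 0.914) and a log2 ratio of -0.39. It was -0.73 with each library divided by its table total and -0.27 with libraries centred on strong gene-end peaks.

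**Figure D2:**
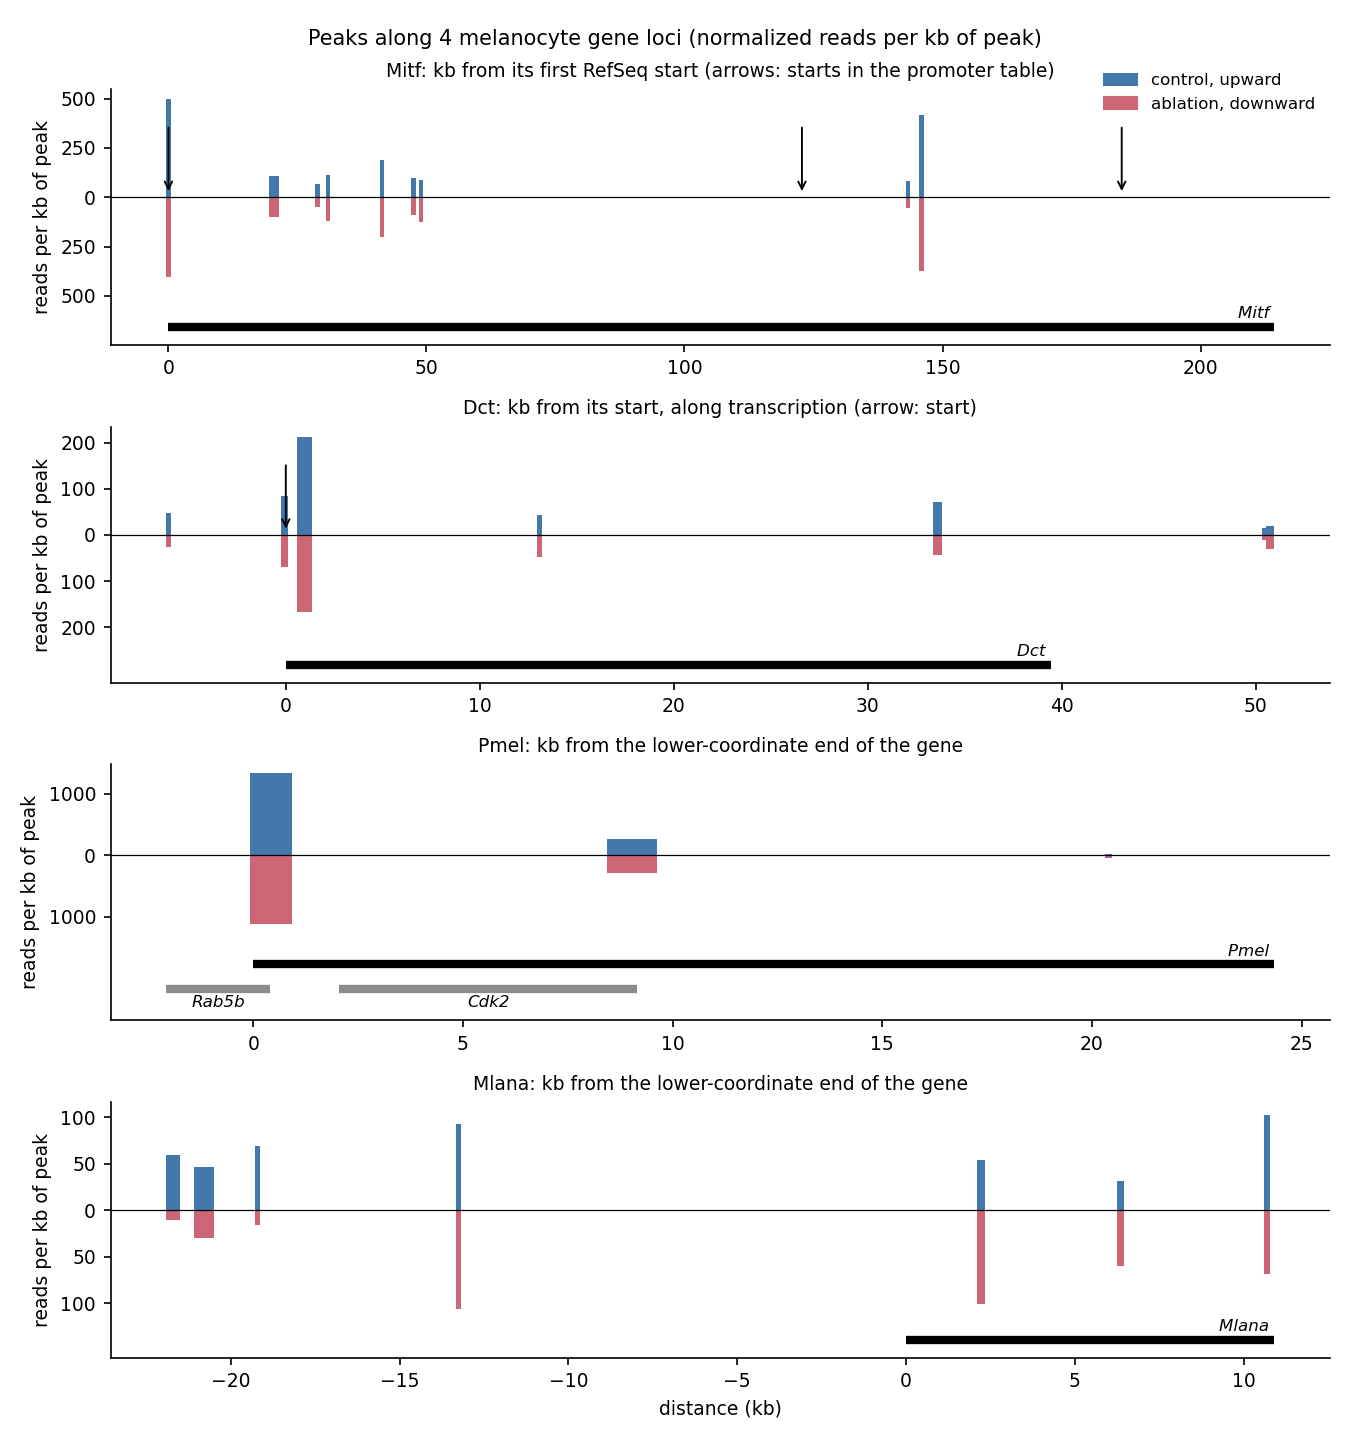
Peaks along Mitf, Dct, Pmel and Mlana, in normalized reads per kb of peak, with control drawn upward and ablation downward (bars are widened where needed to be visible). Black bars are the genes, grey bars are Rab5b and Cdk2, and arrows are RefSeq starts in the promoter table, which were at hand for Mitf and Dct; the second and the third arrow of Mitf meet no peak, 20.4 and 38.5 kb from the nearest.

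Pmel, the scaffold of melanosome fibrils, had the highest summed signal of the 9 genes per kb of peak, and nearly all of it was shared with other genes. Its RefSeq span, chr10:128695888-128720238, overlaps Rab5b at one end and holds Cdk2, genes of endosome traffic and of the cell cycle that many cell types use. The strongest peak (chr10:128695810-128696809) also overlaps Rab5b and had 1338 normalized reads in control and 1124 in ablation, at the 99.8th percentile per kb. The second (chr10:128704317-128705515) overlaps an end of Cdk2 and had 309.8 and 357.4. Together these took 99.7% of the reads of Pmel peaks in control and 99.4% in ablation. The 1 peak in Pmel alone (chr10:128716194-128716373) had 6 reads in control and 10 in ablation. The values of Pmel therefore cannot be assigned to Pmel. The first peak stood at 0.84 of control (0.781 to 0.903) and the second at 1.15 (1.00 to 1.32). The log2 ratio of the first was -0.25, and -0.002 after a loess fit of the ratio on signal. That of the second was 0.21, and -0.13 with each library divided by its table total.

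Mlana, a melanosome protein also known as MART-1, spans chr19:29697541-29708447 and had 7 weak peaks, from 10 to 40 reads in control and 3 to 26 in ablation. The peak within 1 kb of its end (chr19:29708153-29708324) had 17.64 normalized reads in control and 11.79 in ablation. Inside the gene the peak at chr19:29699649-29699883 had 12.7 and 23.58, a ratio of 1.86 (0.98 to 3.59), the highest ratio among all tested peaks of the 9 genes. Only its ablation value reached the signal minimum, and its interval includes no difference.

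The largest log2 difference among the tested peaks was at 21.5 kb from Mlana, at chr19:29675626-29676043. This peak had 24.7 normalized reads in control (17.2 to 34.3) and 4.535 in ablation (1.47 to 10.6), from 35 and 5 reads. It was 5.45-fold lower (2.12 to 17.8), and only its control value reached the signal minimum. Beside it, a peak at chr19:29676441-29677047 had 40 and 20 reads, and one at chr19:29678245-29678418, under the signal minimum, had 17 and 3. These 3 peaks, picked out after their values were seen, span 2.8 kb and held 92 reads in control and 28 in ablation. The protein-coding gene on their other side, Ermp1, ends at 29648415. The sum of the 4 tested Mlana peaks had a log2 ratio of -0.51, which was 0.22 when only peaks overlapping the gene were taken.

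Of the 34 peaks, 24 reached the signal minimum. Among these, 0 were at least 2-fold higher in ablation, where 4.48% of all 76147 tested peaks were, and 1 was at least 2-fold lower, where 1.88% were. The 1 lower peak is the Mlana peak 21.5 kb from the gene, which reached the minimum only through its control value (24.7 against 4.535 normalized reads). The Mitf peak with the lowest ratio (19.76 and 13.61) and the Mlana gene-end peak (17.64 and 11.79) also reached it only in control. The Sox10 peak within the gene (9.879 and 18.14) and the Mlana peak with the highest ratio (12.7 and 23.58) reached it only in ablation. Log2 ratios were above 0 for 10 of the 24 and below 0 for 14, with a median of -0.13 against -0.01 over all tested peaks. Within 1.5-fold lay 19 of the 24, and 79.5% of all tested peaks. With the peaks under the minimum included, the counting interval of the ratio lay above 1 for 4 of the 34 and below 1 for 5, where it did so for 15.2% and 17.2% of all nuclear peaks. These counts were 0 and 10 with each library divided by its table total, against 5.27% and 41.5% of all peaks.

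By gene, 7 of the 9 had a tested peak. Of these, 0 were at least 2-fold higher and 0 at least 2-fold lower in summed signal, where 1.19% and 0.418% of 16272 genes were. Mitf, Dct, Pmel and Mlana lay below 0 on the log2 scale, and Sox10, Mc1r and Tyrp1 above. The median of the 7 was -0.13, against -0.07 over all genes. It includes Pmel (-0.15), whose signal is nearly all shared with Rab5b and Cdk2. The others lay on both sides of 0, with Mlana at -0.51, Dct at -0.39 and Mitf at -0.13. The Mlana sum holds the peak 21.5 kb away that reached the signal minimum only through its control value. Without the minimum Mlana was at -0.37. Tyrp1 was at 0.19, Mc1r at 0.35 and Sox10 at 0.40. Tyrp1 was below 0 with each library divided by its table total, as given above. The 2-fold limit is one of size, without a test.

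**Figure D3:**
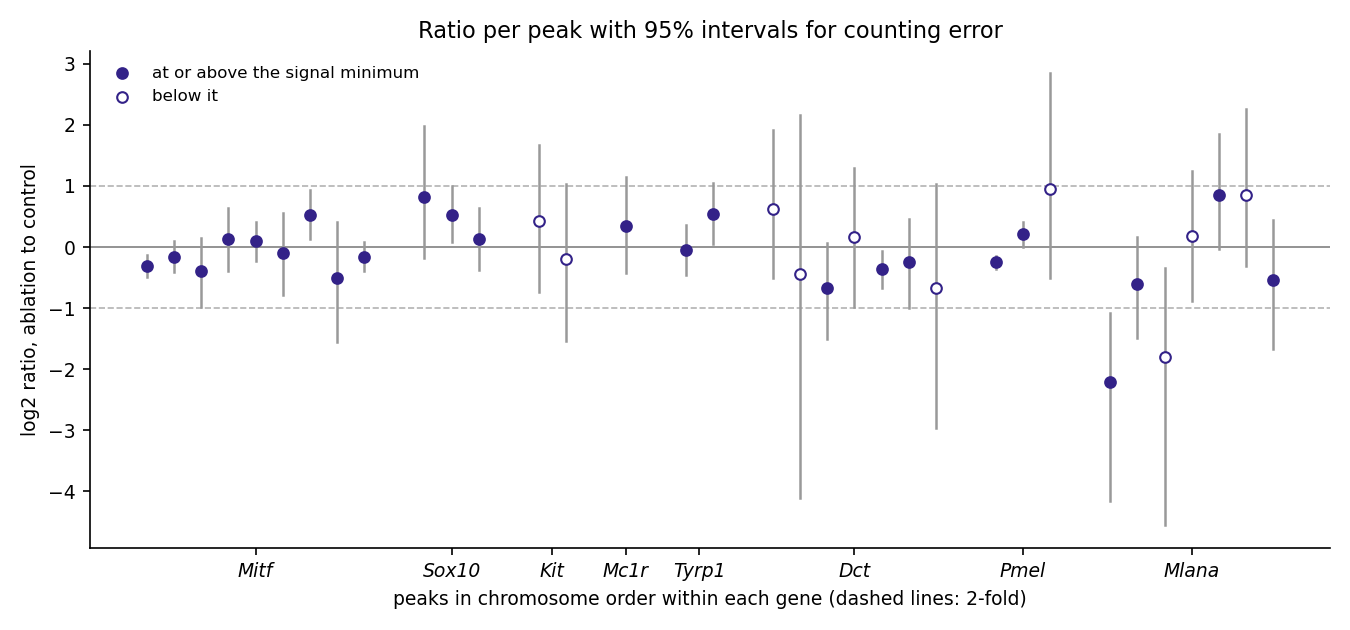
Log2 ratio of ablation to control for each of the 34 peaks, with 95% intervals for counting error (vertical lines); filled points reached the signal minimum and open points did not. The lowest filled point is the Mlana peak at -2.21, and the intervals of 9 of the 34 do not reach 0.

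The farthest peak taken in by the 50 kb limit was the Sox10 peak at 28.3 kb. The nearest one left out was 84.1 kb from Mitf, with 13 reads in each library. The next was 170.2 kb from Kit, with 29 reads in control and 52 in ablation.

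The sorted identity of the cells was read from 12 basal keratinocyte markers. All 12 had a peak and 10 had a gene-end peak. For each gene the strongest gene-end peak per kb was ranked among the genes that have one, and the median rank of these markers was the 82.2nd percentile. Krt5 and Krt14, the keratins of the basal layer, stood at 90.1 and 90.5, and the cell adhesion genes Itga6 and Itgb4 at 81.9 and 82.9. Lower ranks were those of the keratin Krt15 at 46.6 and of the anchoring genes Col17a1 at 48.6, Lama3 at 52.8 and Dst at 22.4, and Trp63 and Lamb3 had no gene-end peak. For the melanocyte genes the ranks were 11.4 for Kit, 13.7 for Mc1r, 14.2 for Mlana, 33.9 for Dct and 76.2 for Mitf, with Pmel at 99.3 through the peak it shares with Rab5b. Sox10, Tyr and Tyrp1 had no gene-end peak. The median log2 ratio of the 12 markers was -0.13, and the difference between the lists was not tested.

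Markers of other lineages were read in the same way, and whether basal keratinocytes use any of them was not tested. Of 16 genes of cell types outside skin, such as albumin (Alb) and insulin (Ins1 and Ins2), 5 had a gene-end peak, with a median rank at the 21st percentile. Of 8 mast cell genes, the other Kit-dependent cell type of skin, 1 did, and 5 had no peak at all, among them the proteases Cpa3, Mcpt4 and Tpsb2. The protease gene Cma1 had 6 peaks, with tested sums of 436.1 and 428.1 normalized reads, and Gata2 and Hdc had 3 each. Of 9 Schwann cell and glial genes, which share Sox10 with melanocytes, 5 had a gene-end peak, with a median rank at the 39.6th percentile. Among these, the myelin gene Mbp had 15 peaks and a tested sum of 3703 normalized reads in control, with its gene-end peak at the 50.6th percentile. The shares with a gene-end peak were 31.2% outside skin, 12.5% for mast cells and 55.6% for Schwann cells and glia, and 6 of the 9 melanocyte genes (66.7%) had a gene-end peak, Pmel's shared peak included, with a median rank at the 24th percentile. The median log2 ratio was 0.13 for the genes from outside skin, 0.18 for the mast cell genes and -0.15 for the Schwann cell genes. The first and second of these were -0.21 and -0.16 with each library divided by its table total.

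**Figure D4:**
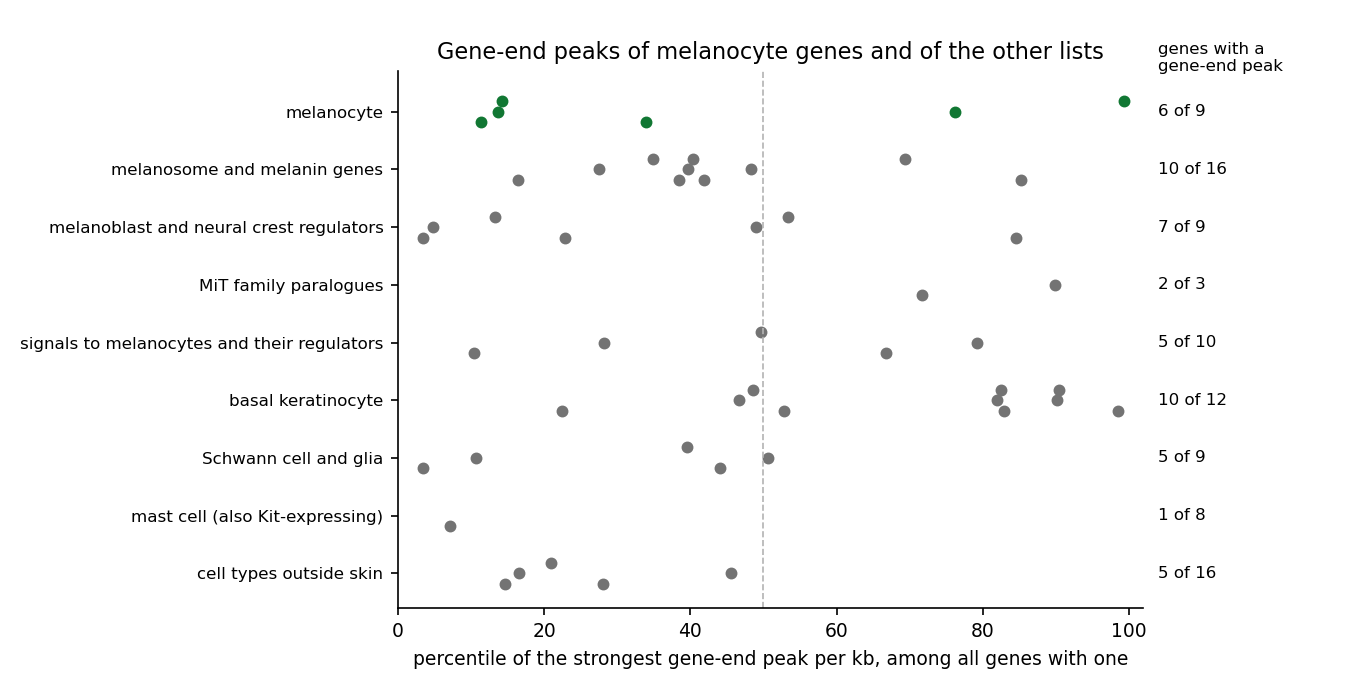
Percentile of each gene's strongest gene-end peak (mean of both libraries, per kb of peak) among all genes that have one, by list, with the number of genes that have such a peak at the right. Of the melanocyte genes, 4 lie below the 50th percentile (dashed line), Mitf at 76.2 and Pmel, through a peak shared with Rab5b, at 99.3.

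Other genes of the pigment pathway were followed in 4 lists. Of 16 genes of melanosome traffic and melanin chemistry, 15 had a peak and 10 a gene-end peak. Of the 14 with a tested peak, 6 lay above 0 and 8 below, with a median log2 ratio of -0.09. Past 2-fold were 0 of the 14, where 1.19% of 16272 genes were at least 2-fold higher and 0.418% at least 2-fold lower. The highest were the lysosomal trafficking regulator Lyst at 0.38 and the melanosomal transporter Slc45a2 at 0.22, and the lowest Rab38, a GTPase of melanosome biogenesis, at -0.35 and the copper transporter Atp7a at -0.31. Rab38 and Lyst also had the strongest gene-end peaks, at the 85.3rd and 69.4th percentile. Slc24a5, an ion exchanger of the melanosome, had no peak.

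Among 9 regulators of melanoblasts and the neural crest, 4 lay above 0 and 5 below, with a median of -0.11. Ednrb, the endothelin receptor of melanoblasts, was the only one past 2-fold, on the lower side, where 0.418% of 16272 genes were. It had 1 peak, at 40.22 normalized reads in control against 18.14 in ablation (57 and 20 reads), and a ratio of 0.451 (0.257 to 0.762). Zeb2, a zinc finger factor of the neural crest, was next lowest at -0.42, and Foxd3 (0.50) and Tfap2b (0.18) were highest. The strongest gene-end peaks were those of Tfap2a and Snai2, at the 84.6th and 53.3rd percentile, and those of Pax3 and Foxd3 ranked at 4.72 and 3.35.

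The paralogues of Mitf differed in openness. Tfe3 and Tfeb, factors of lysosome genes in many cell types, had gene-end peaks at the 89.9th and 71.7th percentile, with log2 ratios of -0.32 and -0.07. Tfec had no peak.

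Signals that reach melanocytes from their surroundings, with their regulators, had 6 of 10 matched genes with a peak. Their median log2 ratio was 0.13, with 4 above 0 and 2 below, and -0.21 with each library divided by its table total. Kitl, the KIT ligand that keratinocytes make, had 13 tested peaks that summed to 1356 normalized reads in control against 1333 in ablation, a ratio of 0.983 (0.918 to 1.05). The highest were Adamts20, a protease needed for melanoblast survival, at 0.52 and the growth factor Fgf2 at 0.48. The strongest gene-end peaks were those of Kitl, at the 79.2nd percentile, and Foxn1, at the 66.8th. So the ligand gene Kitl was far more open than the receptor gene Kit, whose best gene-end peak ranked at 11.4. Edn3, Pomc, Hgf and Dkk1 had no peak.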

How the data were processed

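Peaks of ATAC-seq in 1 control and 1 ablation library were read from 1 table that the authors deposited. Its values are a normalized signal per peak, and the submitters' processing notes list HTSeq, MACS2 2.1.0.20151222, Picard, Trimmomatic and Bowtie2 2.3.4.2, and build mm10. No normalization method or peak selection is given in the sources used here. Within 0.1 of a read, values were whole multiples of 0.706 (control, 100%) and 0.907 (ablation, 99.998%), so reads per peak were recovered. Columns were matched by name, although control is numbered 2 in the header and 1 in its title, and ablation is written Exp rather than Abl. Columns left unused numbered 0.

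The 116411 rows held 84594 distinct peaks, of which 3 mitochondrial peaks were left out, except from the table totals. Median reads per peak were 76 and 62. Whether starts count from 0 or 1 is not stated. Genes came from RefSeq GRCm38.p6 (21887 protein-coding symbols). Log2 ratios used a pseudocount of 1, and ratios and folds none. Gene values are sums over peaks of at least 13.96 normalized reads (the 10th percentile). Intervals are exact Clopper-Pearson (ratios, without the pseudocount) and Poisson (levels), at 95%; PCR copies are not independent molecules.

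The genes, lists and settings were chosen with earlier results of these data known. Of 93 listed genes, 92 matched by symbol (not Asip). All 9 genes are named, with their gene-end, strongest, highest, lowest and 2-fold peaks, and the 2 highest, 2 lowest and 2 strongest gene ends of each of the 4 pathway lists, except 1 gene that is not reported here. Steps were tested on simulated reads. Statistics used scipy 1.17.1 and statsmodels 0.14.6 under Python 3.11.15, figures matplotlib 3.10.9, and tables pandas 2.3.3 with numpy 2.4.6. Alternatives changed the pseudocount (5), scaling, signal minimum, fold limit (1.5) and the peaks that make up a gene's value.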

Additional observations from a re-analysis of the deposited data

Results flagged for a closer look

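The mitochondrial genome was left out of all comparisons of peaks, but its reads count in the table totals by which libraries were divided. It took 31.2% of the reads in peaks in the ablation library and 7.31% in the control library. A signal outside the measurement of nuclear peaks was thus above its control level. Beyond that division, the part of mitochondrial reads in the values of the melanocyte genes was not tested.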

How the results depend on the processing

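With 1 library per group no spread could be measured and no library left out. No paired analysis was possible because each group has a single library. Dividing each library by its total over the table shifted the median of all tested peaks by -0.335 on the log2 scale, and centring on strong gene-end peaks shifted it by 0.12. The median log2 ratio of the tested melanocyte peaks was -0.46 after the division. The median over genes, Pmel included, was -0.47 after the division, -0.012 after the centring and -0.31 with gene-end peaks alone. It was -0.023 with the median of each gene's peaks, and -0.001 without the signal minimum, a setting added after the data were seen. Peaks at least 2-fold lower made up 2.98% of all peaks without the signal minimum. At 1.5-fold, 2 tested peaks were higher and 3 lower, where 13.0% and 7.47% of all tested peaks were. Peaks at least 2-fold lower numbered 2 without the signal minimum. With it at the 25th percentile, which the Mlana peak did not reach, they numbered 0, where 1.18% of all peaks kept were. Of 75 log2 ratios of the 19 peaks named by rule under other settings, 69 stayed within the counting interval. The sign turned for the Sox10 peak from 79192805 (0.13 to -0.20) and the Pmel peak from 128704317 (0.21 to -0.13) after the division, and for the Tyrp1 peak from 80864477 (-0.05 to 0.07) after the centring. After the centring, the intervals of 5 of the 34 peaks lay above 1 and of 4 below, where 22.3% and 9.6% of all nuclear peaks did. The table totals count mitochondrial reads, whose share was 31.2% for ablation against 7.31% for control. The division therefore carries this difference in mitochondrial share into the nuclear values. Division by nuclear reads alone was not run. Beyond this and which peaks each setting takes in, the causes of these moves were not tested. Depth limits Kit, Mc1r and Mlana most, with 40 reads or fewer in each peak.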

Other observations

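The table lists its peaks in 3 stretches, each in the order of the peak names, and what divides them is not stated. Each of the 34 melanocyte gene peaks was in 1 stretch, 5 in the first, 8 in the second and 21 in the third. All 5 in the first were higher in ablation, where 90.2% of its 9840 peaks were. Of the 8 in the second 7 were lower, the Mlana peak from 29675626 among them, where 17.6% of its 8075 peaks were higher. In the third 10 were higher and 11 lower, where 47.2% were higher. Peaks of the first and second stretch were weak, with medians of 15.2 and 15 normalized reads against 81.2 in the third.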
